A study of Mus musculus with 8 samples.

Results

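The comparison set tumour cells and immune cells freed from 4T1 tumours at 37C against cells freed at 4C, in the suspensions that received no transcription inhibitor. Its members were 347 annotated cells of 654 in the whole study, taken from 4 of 8 libraries by the temperature and inhibitor given in the labels. The study implanted 4T1 cells, a mouse mammary carcinoma line, under the skin of Balb/c mice and took the tumours at day 10. For each condition 6 tumour pieces from different mice were pooled and digested for 1 h with 5 mg/ml of a protease from Bacillus licheniformis, an enzyme that works in the cold as well as at body temperature. The 37C suspension was digested on a heated gentleMACS OctoDissociator, and the 4C suspension on an unheated gentleMACS dissociator, so the instrument and the temperature cannot be told apart. Both suspensions then went on ice and through a 30 µm strainer, lysis of red cells, removal of debris and removal of dead cells, and were loaded for droplet 3′ RNA sequencing. The other suspensions of the study were made in the same 2 ways with actinomycin D, a transcription inhibitor, at 2 nM. Each condition was 1 suspension split into aliquots A and B, so the p-values below measure only the spread between aliquots of a suspension and not that between mice or digestions.

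Immediate-early genes are transcribed within minutes of a stimulus, without the need for new protein. They encode transcription factors such as the AP-1 subunits (Fos and Jun families), the Egr and Klf zinc-finger factors and the orphan nuclear receptors of the Nr4a family, along with short-lived feedback regulators such as Dusp and Zfp36. Enzymatic release of cells from tissue at body temperature is a known trigger of this programme, and NF-kB targets such as Nfkbia, Tnfaip3 and many chemokine genes are induced alongside it.

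The 37C libraries held 99 and 115 annotated cells with 158314 and 164586 UMIs (unique transcript counts), and the 4C libraries 59 and 74 cells with 52725 and 65149 UMIs. The median UMIs per cell were 1325 and 1014 at 37C and 618 and 575 at 4C, and the median genes per cell 816 and 696 against 440 and 440. Mitochondrial transcripts were 0.0399% to 0.155% of UMIs. No annotated barcode was shared among these libraries, and each pair of them shared 4 to 19 of about 3000 listed barcodes. T cells and NK cells carried the markers of their labels, and tumour cells carried part of theirs. T-cell markers made up 87.9 and 88.7 of every 10000 UMIs in T cells at 37C and 4C and 0.0998 and 0.795 in tumour cells. Tumour-cell markers made up 60.7 and 76.5 of every 10000 UMIs in tumour cells, with 4 of 7 members seen at each temperature. T-labelled cells also held NK markers, at 24.8 and 39.2 of every 10000 UMIs at 37C and 4C. NK-labelled cells held NK markers at 166 and 217 of every 10000 UMIs at 37C and 4C, but also the T-cell markers at 59.1 and 27.9. The part of T cells in the NK-cell values below was not tested. The cells labelled macrophages carried the markers of their label but also those of other types, most strongly at 4C, where they numbered 8 and 3. Their 18 macrophage markers made up 381 and 300 of every 10000 UMIs at 37C and 256 and 391 at 4C, while 11 mast and basophil markers, such as the mast-cell proteases Cma1, Tpsb2 and Cpa3, made up 215 and 36.1 at 37C and 713 and 44.2 at 4C. In 4C aliquot A the mast and basophil markers exceeded the macrophage markers, and in 4C aliquot B the neutrophil markers did, at 442 of every 10000 UMIs against 1.11, 12.3 and 1.70 in the other libraries. These cells are therefore called macrophage-labelled below, and values within them are sums over cells that together carry markers of several types.

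Over all annotated cells, 33 of 3391 genes tested were higher at 37C (0.973%) and 3 were lower (0.0885%) by edgeR's quasi-likelihood test at an adjusted p under 0.05. The genes that rose were led by AP-1 subunits, the 3 Nr4a receptors, and some chemokine, macrophage and MHC class II genes. The genes that fell were Irgm1, an interferon-inducible GTPase, Leprotl1, and Ccnd3, which encodes cyclin D3. Irgm1 stood at 152 and 170 counts per 1000000 UMIs at 37C and 455 and 537 at 4C (log2 fold change -1.61 ± 0.34, SE, edgeR adjusted p = 0.0152), and lost its call without 37C aliquot A, 37C aliquot B or 4C aliquot B (0.107, 0.0570 and 0.218). The calls of Leprotl1 (adjusted p = 0.0428) and Ccnd3 (0.0498) were lost when any 1 of the 4 libraries was left out. The median log2 fold change of all genes tested was -0.01, and 49.5% were above 0. Leaving out the macrophage-labelled cells from every library left 22 genes higher, 16 of them among the 33, and 6 lower. Thinned to 23212 UMIs a library, the smallest total of the 8, the test called 3 genes higher and none lower, and Fos no longer had enough counts to be tested.

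The 5′ flanks of the 5 early-response genes with the largest rises, Fos, Fosb and the 3 Nr4a genes, and of Nfkbia, the gene called in all annotated cells, in tumour cells and in T cells, are shown here because the results below turn on these genes. Each is the 250 bases upstream of the gene start in RefSeq (GRCm38.p6), 5′ to 3′ on the gene's strand. The windows lie at chr12:85473640-85473889 (Fos, plus strand), chr7:19310046-19310295 (Fosb, minus), chr15:101266596-101266845 (Nr4a1, plus), chr2:57124004-57124253 (Nr4a2, minus), chr4:48045055-48045304 (Nr4a3, plus) and chr12:55492648-55492897 (Nfkbia, minus). The Nr4a1 window lies inside the longer GENCODE model of that gene. Capitals mark the half-site of the cAMP response element, TGACG on either strand, which CREB and ATF proteins bind, and the NF-kB decamer, searched on both strands. No pair of marked motifs overlaps within a window.
Fos: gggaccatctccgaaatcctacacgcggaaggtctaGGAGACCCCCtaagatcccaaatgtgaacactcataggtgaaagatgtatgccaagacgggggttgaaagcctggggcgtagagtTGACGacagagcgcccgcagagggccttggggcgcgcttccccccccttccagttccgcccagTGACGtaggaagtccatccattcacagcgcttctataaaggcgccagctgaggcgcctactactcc
Fosb: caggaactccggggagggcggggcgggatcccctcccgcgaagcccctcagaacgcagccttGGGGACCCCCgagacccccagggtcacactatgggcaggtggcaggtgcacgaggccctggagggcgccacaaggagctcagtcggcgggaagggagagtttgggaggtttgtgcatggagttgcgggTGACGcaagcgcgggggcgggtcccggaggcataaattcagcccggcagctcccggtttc
Nr4a1: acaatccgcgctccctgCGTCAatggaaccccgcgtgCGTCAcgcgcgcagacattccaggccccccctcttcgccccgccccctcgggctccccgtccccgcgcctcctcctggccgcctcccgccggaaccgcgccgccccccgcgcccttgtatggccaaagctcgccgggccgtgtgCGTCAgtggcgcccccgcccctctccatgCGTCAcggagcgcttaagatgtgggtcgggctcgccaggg
Nr4a2: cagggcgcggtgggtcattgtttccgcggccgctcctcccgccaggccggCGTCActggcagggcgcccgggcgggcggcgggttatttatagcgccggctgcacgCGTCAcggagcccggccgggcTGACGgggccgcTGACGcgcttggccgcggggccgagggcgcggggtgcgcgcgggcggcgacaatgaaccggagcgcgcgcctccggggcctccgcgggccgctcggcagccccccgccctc
Nr4a3: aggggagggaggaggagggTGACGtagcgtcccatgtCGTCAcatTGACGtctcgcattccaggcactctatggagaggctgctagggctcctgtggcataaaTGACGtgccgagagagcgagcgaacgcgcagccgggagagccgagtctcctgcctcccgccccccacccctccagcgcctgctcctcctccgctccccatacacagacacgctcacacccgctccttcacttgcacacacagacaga
Nfkbia: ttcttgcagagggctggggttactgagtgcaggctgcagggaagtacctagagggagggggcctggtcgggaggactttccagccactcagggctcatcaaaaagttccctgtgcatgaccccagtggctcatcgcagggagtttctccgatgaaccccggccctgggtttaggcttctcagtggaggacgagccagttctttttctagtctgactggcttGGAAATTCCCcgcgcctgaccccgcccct
The Nr4a1, Nr4a2 and Nr4a3 windows held 4 cAMP response half-sites each, and the Fos window held 2, which start at positions -129 and -66. Fosb held 1, at -60, and so did Atf3, at -7. Of 32851 RefSeq windows of the same length, 17.8% held at least 1 such half-site and 0.137% held 4 or more. An NF-kB decamer stood at -29 in Nfkbia, at -214 in Fos and at -188 in Fosb, where the same stretch fits the pattern on both strands. Of all windows, 7.25% held such a decamer. The windows of Jun, Jund and Ier5, also called higher, held neither motif, and none of these 10 windows held a CArG box, the serum response element core found in 1.47% of windows. Bases further upstream than 250 were not searched, so a motif missing here may lie outside the window. A match is a description of the letters and not evidence of binding.

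Of 8 AP-1 subunits tested over all annotated cells, 5 were called higher at 37C and none lower, against 0.973% and 0.0885% of all genes tested. Their summed share was 0.455% and 0.320% of UMIs in tumour cells at 37C and 0.0732% and 0.0815% at 4C, and in T cells 0.406% and 0.326% against 0.0864% and 0.155%. Fos, the founding AP-1 subunit (chr12:85473890-85477273), stood at 651 and 401 counts per 1000000 UMIs of the summed cells (CPM) in the 37C libraries and at 0 in both 4C libraries. With the 4C group at its floor of 3 counts over the group, Fos was at least 20.7-fold higher, and edgeR gave an adjusted p of 0.000192. Fosb, its close relative, was at 562 and 358 CPM against 0 and 15.3, a 54.0-fold ratio of pooled counts with a counting interval of 9.55 to 2148. Neither gene overlapped between temperatures, which is no separate support for genes picked by their calls in these libraries.

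Jun, the usual partner of Fos, was at 360 and 358 CPM at 37C and 37.9 and 46.0 at 4C (log2 fold change 3.06 ± 0.53, SE, edgeR adjusted p = 0.00428). Atf3, a stress-induced member of the same leucine-zipper group, was at 202 and 237 CPM against 19.0 and 15.3, with an edgeR adjusted p of 0.00795. Both genes were high in the 2 aliquots at 37C and had 1 to 3 UMIs per library at 4C. Jund, which most cells express at rest, changed less, from 171 and 107 CPM at 4C to 556 and 444 at 37C (log2 fold change 1.87 ± 0.41, edgeR adjusted p = 0.0186). Junb was at 1156 and 814 CPM against 171 and 476 and missed the threshold (edgeR adjusted p = 0.0802), and Fosl2 stood at 0.97 ± 0.45 on the log2 scale without passing. The call of Atf3 was lost without 37C aliquot A, 37C aliquot B or 4C aliquot B (edgeR adjusted p = 0.0746, 0.191 and 0.0683), and that of Jund without 37C aliquot A or 4C aliquot B (0.0746 and 0.167). Fos, Fosb and Jun were called in each of the 13 alternatives in which they could be tested.

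**Figure D1:**
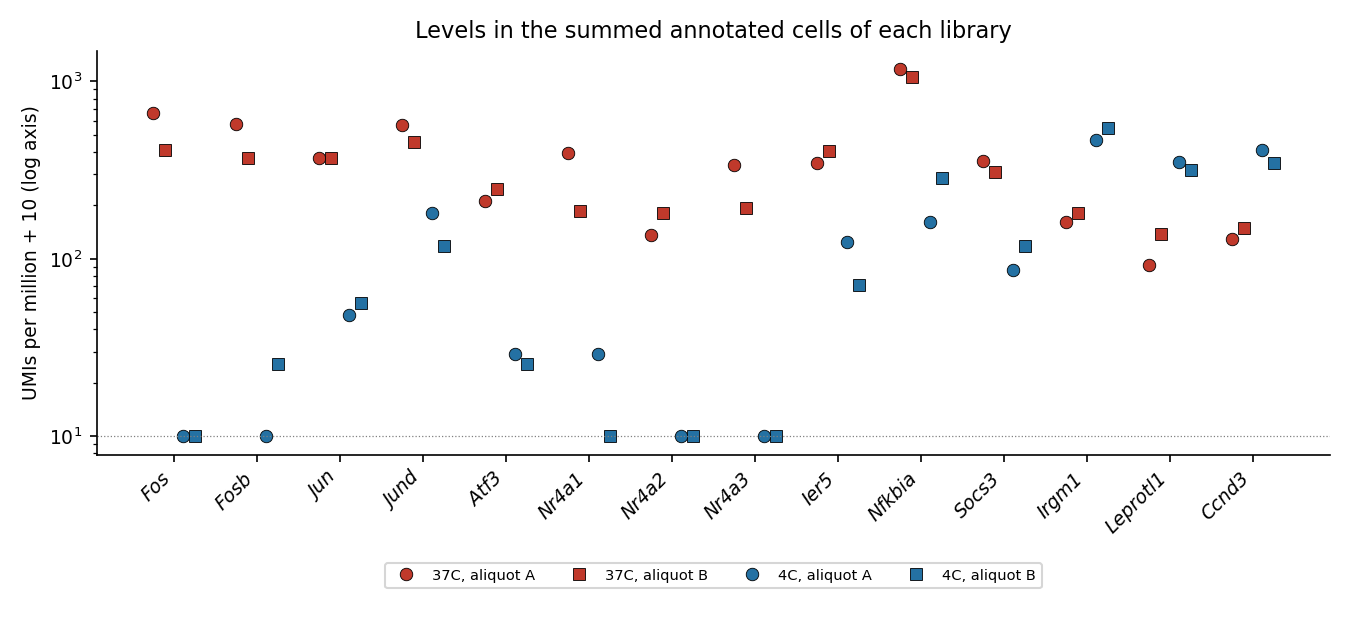
Levels of 14 genes in the summed annotated cells of each library, in CPM plus 10 on a log axis, with the dotted line at 0 UMIs. Points are single libraries (circles aliquot A, squares aliquot B); Fos, Nr4a2 and Nr4a3 sit on the dotted line in both 4C libraries, and Irgm1, Leprotl1 and Ccnd3 are the genes that stand higher at 4C.

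The Nr4a receptors, orphan nuclear receptors induced by antigen-receptor and calcium signals in lymphocytes, were near absent at 4C. Nr4a1 (chr15:101254269-101274795) stood at 385 and 176 CPM at 37C and at 19.0 and 0 at 4C, a 32.9-fold ratio of pooled counts with a counting interval of 5.75 to 1312. Nr4a3 was at 328 and 182 CPM and Nr4a2 at 126 and 170 CPM at 37C, and neither had a UMI in the annotated cells at 4C, which makes them at least 10.0-fold and at least 5.82-fold higher. All 3 members were called (edgeR adjusted p = 0.00767 for Nr4a1, 0.0179 for Nr4a2 and 0.00986 for Nr4a3). Without 37C aliquot A none of the 3 passed (0.254, 0.122 and 0.183), and without 4C aliquot B Nr4a2 did not (0.0683).

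Of the 11 genes in the Egr, Klf and Ier group, 8 were tested and only Ier5, a short-lived regulator of the heat shock and growth response, was called. Ier5 rose from 114 and 61.4 CPM to 335 and 395 (log2 fold change 2.10 ± 0.45, edgeR adjusted p = 0.0180), and its call was lost without 37C aliquot B or 4C aliquot B (0.139 and 0.221). The other 7 had fold changes above 0 without passing, among them Egr1 with 23 and 18 UMIs against 1 and 0 (edgeR adjusted p = 0.132) and Ier3 with 57 and 51 against 8 and 6 (0.210). None of the 11 feedback regulators tested was called: Zfp36, which destabilises cytokine mRNAs, stood at 1.66 ± 0.53 and Dusp1, a MAP kinase phosphatase, at 1.32 ± 0.54 on the log2 scale.

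Across the 4 groups together, 41 early-response genes were listed, 30 passed the filter on low counts and 9 were called higher, with none lower. Their median log2 fold change was 1.61, against -0.01 for all genes tested, and it stayed at 1.61 with the 3 genes absent at 4C set at their lower bound. The libraries at 37C hold most of the UMIs, so a gene seen mainly there passes the filter more easily, and these figures describe the list only. The count of 9 fell to 4 without 37C aliquot A, to 4 without the T cells and to 2 without the tumour cells. Socs3, a cytokine-induced inhibitor of JAK signalling outside these groups, rose from 75.9 and 107 CPM to 347 and 298 (edgeR adjusted p = 0.0364); each of the 4 leave-one-out fits lost that call.

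**Figure D2:**
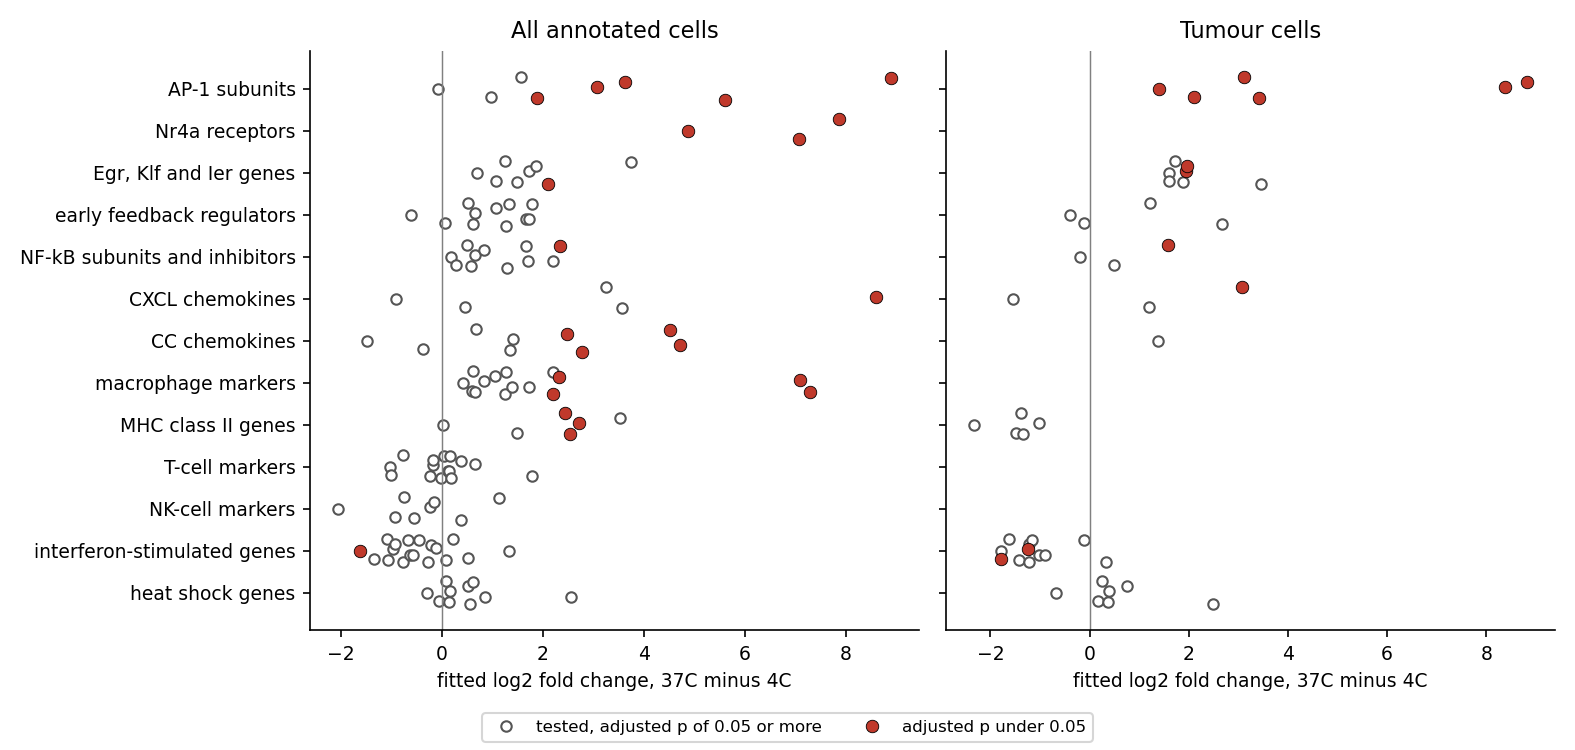
Fitted log2 fold changes (37C minus 4C) of the tested members of 13 gene lists, in all annotated cells (left) and in tumour cells (right), with filled points for an adjusted p under 0.05 and open points for the rest. Vertical scatter within a row only separates the points; values above about 6 belong to genes without a UMI at 4C and depend on the prior count of the fit. The AP-1 and Nr4a rows hold filled points far to the right, and the filled points left of 0 belong to interferon-stimulated genes.

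The early-response genes made up a larger share of UMIs at 37C in every annotated type. In tumour cells their summed share was 0.889% and 0.731% at 37C and 0.259% and 0.220% at 4C. In T cells it was 1.16% and 1.07% against 0.432% and 0.551%, and in NK cells 0.866% and 1.09% against 0.326% and 0.343%. The groups did not overlap in these 3 types, and the exact counting intervals of the 37C and 4C libraries were apart.

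Macrophage-labelled cells stood at 0.968% and 0.963% at 37C and at 0.375% and 0.664% at 4C, where the second value rests on 9 of 1356 UMIs and its interval of 0.304% to 1.26% covers both 37C values. Barcodes of at most 100 UMIs that the annotation leaves out, too few for most cells, also stood higher at 37C, at 1.21% and 1.13% against 0.479% and 0.412% at 4C. Fos itself was present there at 4C, at 73.1 and 127 CPM, against 542 and 701 CPM at 37C. The part of free RNA in the shares of the annotated cells was not tested. With 2 libraries against 2 an exact permutation test cannot go below p = 0.333, so the shares carry no p.

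**Figure D3:**
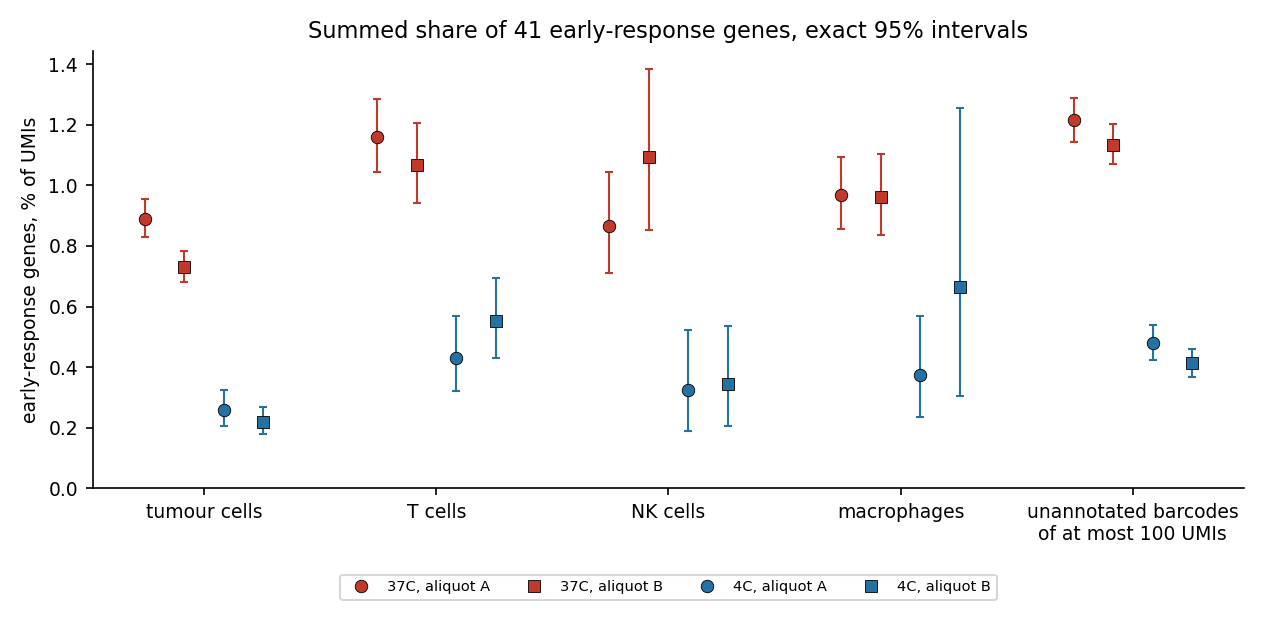
Summed share of the 41 early-response genes in the UMIs of each cell type and of the small unannotated barcodes, as a percentage, with exact 95% Clopper-Pearson intervals that cover counting error only. Each point is 1 library; the 37C libraries lie above the 4C libraries in every column, and the 4C macrophage interval of aliquot B is the widest.

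The UMIs of single early genes were spread unevenly over the cell types at 37C. Tumour cells held 62.0% of all UMIs at 37C but 88.8% of the Fos UMIs, 85.9% of Atf3, 81.9% of Jun and 75.0% of Fosb. NK cells, with 18772 UMIs at 37C, had none of Fos, which allows at most 3 counts. T cells held 17.3% of all UMIs but 55.6% of Nr4a1 and 48.8% of Nr4a3, and NK cells held 5.81% of all UMIs and 32.9% of Nr4a3.

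Nr4a receptors together took 0.191% and 0.153% of T-cell UMIs, 0.225% and 0.333% of NK-cell UMIs, 0.130% and 0.119% of macrophage UMIs and 0.0114% and 0.00354% of tumour-cell UMIs at 37C. At 4C the only Nr4a UMI in 117874 was in a T cell of aliquot A. Nr4a2 in NK cells rested on 1 library, with 2 UMIs in aliquot A and 14 in aliquot B. These splits are descriptions of 1 suspension and were not tested between types.

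**Figure D4:**
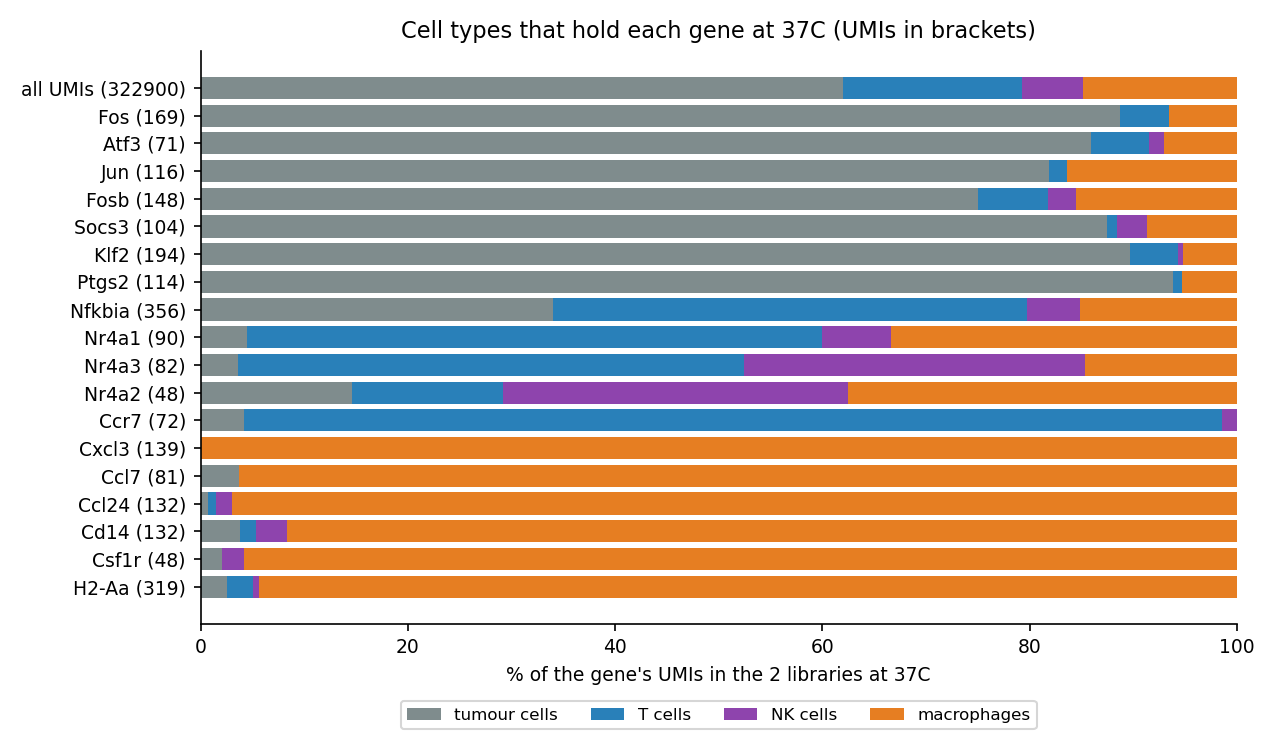
Share of each gene's UMIs at 37C held by tumour cells, T cells, NK cells and macrophages, both libraries summed, with the number of UMIs in brackets and all UMIs in the top bar. Fos, Atf3, Jun, Socs3, Klf2 and Ptgs2 lie mostly in tumour cells, Nr4a1 and Nr4a3 in lymphocytes and macrophages, and Ccr7 in T cells. The chemokine and MHC class II genes of the lower bars lie mostly in macrophages.

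Within tumour cells, which gave the largest sums, 24 of 1756 genes tested were higher at 37C (1.37%) and 13 were lower (0.74%). These calls lean on the spread shared with the inhibitor libraries: with only the 4 libraries without inhibitor no gene was called in either direction (158 had an unadjusted p under 0.05), and DESeq2 called 2 higher, Fos and Fosb, and none lower. All 6 AP-1 subunits tested were called in tumour cells. Fos stood at 996 and 558 CPM and Fosb at 698 and 443 CPM at 37C, and both were at 0 in the tumour cells at 4C, which makes them at least 19.5-fold and at least 14.3-fold higher (edgeR adjusted p = 1.68e-07 and 1.68e-06). With only the 4 libraries the edgeR adjusted p was 0.0559 for each of them.

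Of 17 early-response genes tested in tumour cells 8 were called higher, the 6 AP-1 subunits with Klf2 and Ier3, against 1.37% of all genes tested. The median was 1.94, against -0.01 for all genes tested. As over all cells, genes seen mainly at 37C pass the filter more easily, so these figures describe the list only. Jun, Atf3, Jund and Junb rose in tumour cells with log2 fold changes of 3.11 ± 0.61, 3.41 ± 0.78, 2.11 ± 0.49 and 1.39 ± 0.38. Atf3 lost its call without 37C aliquot B or 4C aliquot B (0.222 and 0.249), Jund without 4C aliquot B (0.426) and Junb without 37C aliquot A or 4C aliquot A (0.219 and 0.311). Klf2, a Krüppel-like factor, stood at 961 and 797 CPM at 37C and at 166 and 264 CPM at 4C in tumour cells (log2 fold change 1.94 ± 0.39, edgeR adjusted p = 0.00246). T cells gave the other order for Klf2, with 159 and 165 CPM at 37C and 432 and 388 CPM at 4C, on 5, 4, 5 and 5 UMIs. Over all cells without tumour cells its log2 fold change was -0.96 (edgeR adjusted p = 0.471), against 1.25 with them.

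Of 9 inflammatory genes tested in tumour cells, 3 were called higher, with a median of 1.21, and Socs3 rose beside them. Of all genes tested in tumour cells 1.37% were called higher, with a median of -0.01. The limit set by the filter holds for this list too. Ptgs2, the inducible cyclooxygenase of prostaglandin synthesis, went from 66.5 and 154 CPM to 320 and 699 (edgeR adjusted p = 0.0162), Cxcl1, a neutrophil-attracting chemokine, from 0 and 44.1 to 195 and 274 (0.0432), and Socs3 from 33.3 and 66.1 to 515 and 407 (0.00186). The call of Ptgs2 was lost without 37C aliquot B or 4C aliquot A (0.362 and 0.145), and that of Cxcl1 without 37C aliquot B, 4C aliquot A or 4C aliquot B (0.294, 0.288 and 0.0968). Mgst3, a microsomal glutathione transferase, stood at 206 and 266 CPM against 33.3 and 0, and Ddx39, an RNA helicase, at 206 and 186 against 33.3 and 0. Both rest on 1 UMI at 4C, and their calls were lost without 4C aliquot B (0.475 and 0.557), that of Mgst3 also without 37C aliquot B (0.0574) and that of Ddx39 without 4C aliquot A (0.0589).

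The tumour-cell genes that stood lower at 37C included 3 interferon-inducible GTPases. Irgm1 went from 632 and 749 CPM at 4C to 195 and 212 at 37C (log2 fold change -1.78 ± 0.38), Ifi47 from 798 and 573 to 206 and 177 (-1.83 ± 0.40), both with an edgeR adjusted p of 0.00499, and Igtp from 931 and 882 to 366 and 398 (-1.25 ± 0.33, edgeR adjusted p = 0.0264). The 3 were picked by their calls in these same libraries, so the lack of overlap between the groups is no separate support. Of the interferon-stimulated list, 12 members were tested in tumour cells and 2, Irgm1 and Igtp, were called lower, against 0.74% of all genes tested. Ifi47 is not on the list. The median of the list was -1.22, against -0.01 for all genes tested. Members such as Oasl2 (-1.42) and Rtp4 (-1.64) did not pass. Irgm1 lost its call without 4C aliquot B (0.306) and Ifi47 without 4C aliquot A (0.149), and Igtp without any 1 of the 4 (0.0989 to 0.426).

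Txnip, an inhibitor of thioredoxin and of glucose uptake, fell from 266 and 154 CPM to 45.8 and 0 in tumour cells (edgeR adjusted p = 0.0432), on 15 UMIs at 4C and 4 at 37C. Fah, an enzyme of tyrosine breakdown, fell from 233 and 198 CPM to 22.9 and 35.4 (0.0377). Cp, which encodes ceruloplasmin, went from 898 and 749 CPM to 481 and 159 (0.0285). Each of the 4 leave-one-out fits lost the call of Txnip and of Fah, and Cp lost it without 37C aliquot B, 4C aliquot A or 4C aliquot B.

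**Figure D5:**
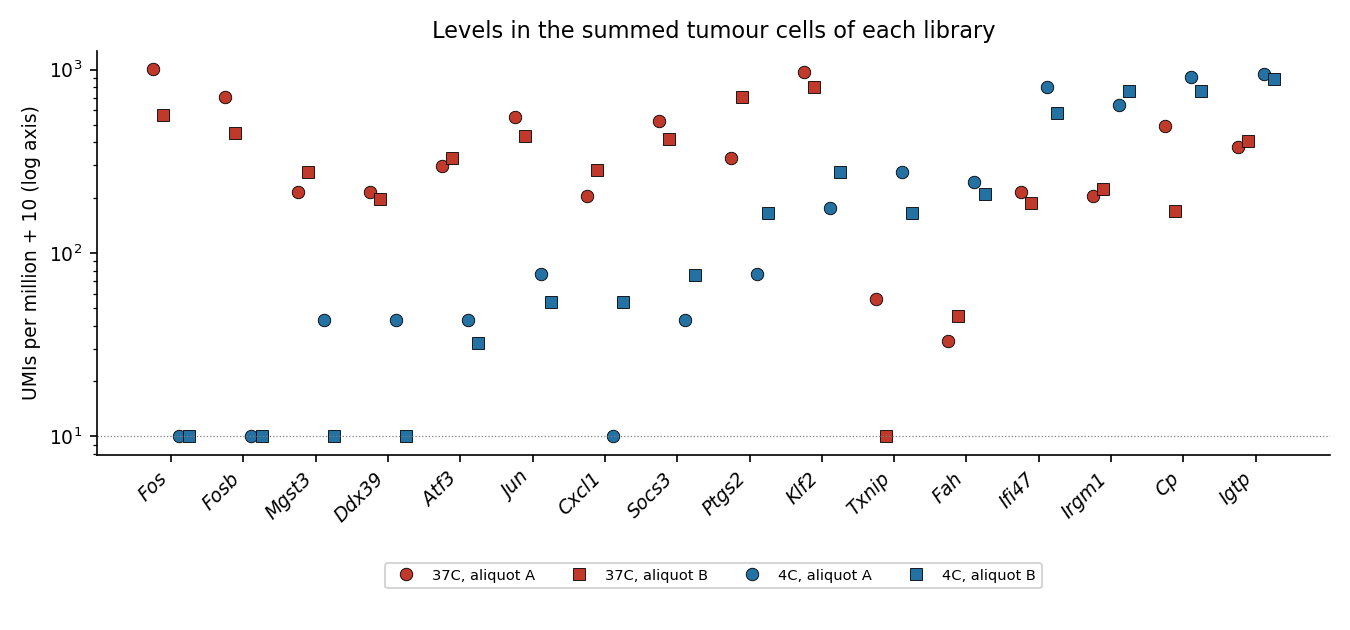
Levels of 16 genes in the summed tumour cells of each library, in CPM plus 10 on a log axis, with the dotted line at 0 UMIs and 1 point per library. The 10 genes on the left stand higher at 37C and the 6 on the right higher at 4C. All were picked from the calls in these same libraries, so the lack of overlap between temperatures is no separate support.

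In T cells, 1 of 230 genes tested was higher at 37C (0.435%) and none was lower (0.0%); 25 had an unadjusted p under 0.05, and DESeq2 also called 1 higher and none lower. That gene was Nfkbia, the inhibitor of NF-kB that NF-kB itself induces (chr12:55489410-55492647). Its T-cell level was 2699 and 3217 CPM at 37C and 0 and 388 at 4C, from 85, 78, 0 and 5 UMIs (log2 fold change 3.78 ± 0.58, edgeR adjusted p = 0.00155). The call held in each of its 10 alternatives, with a highest adjusted p of 0.0328.

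Nfkbia was also the only one of 11 tested NF-kB genes called over all cells, at 1162 and 1045 CPM against 152 and 276 (log2 fold change 2.34 ± 0.37, edgeR adjusted p = 0.00173), and it rose in tumour cells from 133 and 242 CPM to 607 and 602 (0.0431), where the call was lost without 37C aliquot B, 4C aliquot A or 4C aliquot B (0.0826, 0.288 and 0.0968). Tnfaip3, a ubiquitin-editing brake on NF-kB, stood at 1.70 ± 0.48 over all cells without passing, and the whole group had fold changes above 0 with a median of 0.82. Nfkbiz in T cells had 15 and 15 UMIs at 37C and none at 4C, which makes it at least 4.46-fold higher.

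T cells also held the UMIs of Ccr7, the lymph-node homing receptor, and of Csf2, which encodes the cytokine GM-CSF. Ccr7 was called over all cells, at 234 and 213 CPM against 0 and 30.7 (edgeR adjusted p = 0.0190), and 34 and 34 of its UMIs at 37C were in T cells. It sat in 11 cells at 37C, and its call was lost without 37C aliquot A, 37C aliquot B or 4C aliquot A (0.382, 0.369 and 0.103). Csf2 gave 16 and 41 T-cell UMIs at 37C and 1 and 0 at 4C (edgeR adjusted p = 0.0684 over all cells), in 7 cells of which 1 held 52.6%. Markers of several other types also stood higher at 37C in the labelled T cells, which held 55741 UMIs at 37C and 24460 at 4C. Those of some types stood lower at 37C, with both aliquots summed. Neutrophil markers took 0 UMIs at 37C and 29 at 4C, all of them in aliquot B. NK markers were at 24.8 and 39.2 of every 10000 UMIs at 37C and 4C. Fibroblast and endothelial markers, on few UMIs, also stood lower at 37C. B-cell markers took 95 UMIs at 37C (7.30 and 29.7 of every 10000 in aliquots A and B) and 3 at 4C. Dendritic-cell markers took 79 and 2, but Ccr7 is itself on that list and its 34 and 34 UMIs were most of the 79. Mast and basophil markers took 70 at 37C, all in aliquot B, and 1 at 4C. Of those 70, 65 were of Il13 and 4 of Il4, cytokines that T cells also make. Ccl22, a chemokine of dendritic cells, had 11 UMIs at 37C, all in T cells of aliquot B. The part of these cells in the Ccr7 and Csf2 values was not tested.

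The other T-cell genes gave no call. Of the 15 T-cell markers tested over all cells none passed and the median was 0.04, and of 10 activation and regulation genes none passed with a median of 0.93. Il2ra, the inducible chain of the IL-2 receptor, had 43 and 18 UMIs in T cells at 37C and 0 and 3 at 4C (edgeR adjusted p = 0.077), and Ctla4 34 and 20 against 1 and 6 (0.37). In NK cells, which were too few to test, Tnfaip3 had 8 and 11 UMIs against 0 and 0, and Gzma, a granzyme, had 92 and 92 against 63 and 40.

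Macrophage-labelled cells made up 18 (18.2%) and 17 (14.8%) of the annotated cells at 37C and 8 (13.6%) and 3 (4.05%) at 4C, with 26967 and 21080 UMIs against 5866 and 1356. The exact interval at 4C was 6.04% to 25.0% for aliquot A and 0.844% to 11.4% for aliquot B. T cells were 28 (28.3%) and 23 of 115 at 37C and 30.5% and 37.8% at 4C, NK cells 12.1% and 6.96% against 15.3% and 13.5%, and tumour cells 41.4% and 58.3% against 40.7% and 44.6%. The values of the groups overlapped for tumour cells only, but the exact intervals of the 37C and 4C libraries overlapped in every type. In T cells the intervals were 19.7% to 38.2% and 13.1% to 28.5% at 37C, and 19.2% to 43.9% and 26.8% to 49.9% at 4C. With 2 libraries a group the shares carry no p. Barcodes above 5000 UMIs, all of them left out of the annotation, numbered 16 and 23 at 37C and 1 and 0 at 4C, so the shares cover only cells of at most 4798 UMIs.

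Of 15 macrophage markers tested over all annotated cells, 4 were called higher and none lower: Csf1r, the receptor for the growth factor CSF1, Clec7a, a receptor for fungal glucans, Apoe and Arg1. Csf1r had 28 and 20 UMIs at 37C and none at 4C, at least 5.86-fold higher, and Clec7a 35 and 20 against none, at least 6.73-fold. Cd14, a lipopolysaccharide co-receptor, stood at 524 and 298 CPM against 19.0 and 76.7 (edgeR adjusted p = 0.0152), and Ly86 at 120 and 103 CPM against 0 in both. The call of Ly86 was lost without 4C aliquot A or 4C aliquot B (edgeR adjusted p = 0.0724 and 0.162). All 18 macrophage markers together made up 68.8 and 41.6 of every 10000 UMIs of all annotated cells at 37C and 31.7 and 13.7 at 4C. Such sums alone do not separate more cells of a type from more RNA per cell. The macrophage-labelled cells numbered 18 and 17 at 37C and 8 and 3 at 4C, with medians of 1252 and 1007 UMIs per cell against 594.5 and 501. The part of each in the sums was not tested.

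Within the macrophage-labelled cells the 18 macrophage markers together overlapped between temperatures, at 381 and 300 of every 10000 UMIs at 37C and 256 and 391 at 4C. Single members rested on few UMIs at 4C, where 3 counts over the group stood at 415 CPM. C1qa had 964 and 996 CPM at 37C and 1193 and 0 at 4C (ratio of pooled counts 1.01, counting interval 0.453 to 2.65), Cd68 had 927 and 854 against 852 and 737 CPM, and Mrc1 1187 and 1518 against 1193 and 0 CPM. Of the whole list of 18 macrophage markers, 18 were seen in them at 37C and 16 at 4C, at 346 and 281 of every 10000 UMIs. The defining marker Adgre1 gave 1 and 0 UMIs against 1 and 1.

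The MHC class II genes, which present peptides to CD4 T cells, were low within the macrophage-labelled cells of the 4C libraries. Their summed share of UMIs in these cells was 1.93% and 2.50% at 37C and 0.119% and 0.147% at 4C, from 521, 526, 7 and 2 UMIs, with intervals of 1.77% to 2.10%, 2.29% to 2.71%, 0.0480% to 0.246% and 0.0179% to 0.532%. H2-Aa had 136 and 165 UMIs in these cells against 1 and 0, a 45.2-fold ratio of pooled counts with a counting interval of 8.06 to 1793. H2-Eb1 had 94 and 83 against none, at least 8.93-fold higher, and the invariant chain gene Cd74 102 and 102 against 1 and 1. In the suspensions with inhibitor the share was 1.03% and 1.67% at 37C and 1.497% and 0.680% at 4C, the last 2 from 1 and 5 cells. These values come from 11 macrophage-labelled cells at 4C without inhibitor. In them mast and basophil markers took 424 of 7222 UMIs at 4C (587 of every 10000) and 657 of 48047 at 37C (137 of every 10000), with 7 and 9 of 11 members seen, and neutrophil markers 84.5 and 6.04 of every 10000. Cma1 had 177, 33, 150 and 0 UMIs in 37C aliquots A and B and 4C aliquots A and B. The part of these other markers in the MHC class II difference was not tested.

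Over all annotated cells 3 of the 6 MHC class II genes tested were called higher: H2-Aa at 910 and 1063 CPM against 37.9 and 246 (edgeR adjusted p = 0.00426), H2-Ab1 at 1055 and 948 against 171 and 200 (0.00428) and H2-Eb1 at 638 and 535 against 19.0 and 169 (0.00767). Without macrophages the log2 fold changes of H2-Aa and H2-Eb1 reversed to -1.19 and -1.27 (edgeR adjusted p = 0.530 and 0.614). In tumour cells none of 5 passed and the median was -1.38, with H2-Aa at 45.8 and 35.4 CPM at 37C and 33.3 and 331 at 4C. That 4C value of aliquot B stood apart from its own aliquot A.

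Of 9 CC chemokines tested over all cells 4 were called higher and none lower, and of 5 CXCL chemokines 1 was called higher, with log2 fold changes from -1.48 to 4.72 and from -0.90 to 8.60. The 4 CC chemokines were Ccl24, Ccl7, Ccl9 and Ccl2, which attract eosinophils, monocytes and other leukocytes. Ccl24 stood at 354 and 462 CPM against 37.9 and 0 (edgeR adjusted p = 0.000729), and 53 and 75 of its UMIs at 37C were in macrophage-labelled cells, with 49.2% in 1 cell. Ccl7 was at 196 and 304 CPM against 19.0 and 0 (0.00602) and Ccl9 at 385 and 316 against 37.9 and 61.4 (0.00428). Ccl2 was at 423 and 917 CPM against 171 and 76.7 (0.00860), and tumour cells held 22 and 65 of its UMIs at 37C and 7 and 5 at 4C. The call of Ccl2 was lost without 37C aliquot B (0.0926) and without macrophages (0.232), and DESeq2 gave Ccl7 an adjusted p of 0.0710.

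Cxcl3, a neutrophil-attracting chemokine, gave 38 and 101 UMIs at 37C and none at 4C, at least 16.8-fold higher (edgeR adjusted p = 0.0180). All of them lay in macrophage-labelled cells, in 7 cells of which 1 held 68.3%, and DESeq2 gave an adjusted p of 1.000. Its call was lost without 37C aliquot B (0.116). Il1b, the gene of interleukin-1 beta, was at 423 and 310 CPM against 0 and 61.4 and just missed the threshold (0.0507).

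Of 55 genes in the 4 inflammatory groups 32 were tested and 7 were called higher, with a median log2 fold change of 1.54. Of all genes tested 0.973% were called higher, with a median of -0.01. That share also stands beside the counts of macrophage, MHC class II and chemokine genes above. As with the early-response list, genes seen mainly at 37C pass the filter more easily, so these figures describe the lists only. Without macrophages 3 inflammatory genes were called, 1 of them among the 7. Without 4C aliquot B the count was 12. Ccl5, made by T and NK cells, stood at 720 and 699 CPM against 1214 and 675 and overlapped between temperatures.

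None of the 10 heat shock genes tested was called, with a median log2 fold change of 0.34. Of these, Hspa1b, an inducible HSP70 gene, had 13 and 37 UMIs at 37C and 1 and 2 at 4C (edgeR adjusted p = 0.144). Hsp90aa1 stood at 385 and 316 CPM against 284 and 353. Of the cold-inducible genes Cirbp had 6 and 4 UMIs at 37C and 4 and 7 at 4C, and Rbm3 10 and 9 against 2 and 2, and a difference in them was not detectable at this depth.

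Whether the difference between temperatures was itself different with actinomycin D was tested as an interaction over all 8 libraries. No gene of 3391 passed by edgeR, with 250 at an unadjusted p under 0.05, and none by DESeq2, with 106. Without 4C aliquot B, 3 genes passed in one direction and 14 in the other. The smallest adjusted p was 0.0663, for Arg1, the arginase of alternatively activated macrophages, which had 158 and 146 UMIs at 37C and 16 and 8 at 4C without inhibitor and 336, 238, 0 and 0 with it. The early-response share over all cells was 0.954% and 0.824% at 37C and 0.317% and 0.305% at 4C without inhibitor, and its mean was 0.359% at 37C and 0.371% at 4C with inhibitor. For Fos the interaction was 6.92 on the log2 scale (edgeR adjusted p = 0.37), from 38 and 71 UMIs at 37C and 2 and 3 at 4C with inhibitor, so a change of the Fos response by the inhibitor was not resolved by these libraries.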

How the data were processed

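The 8 libraries (4 groups of temperature and inhibitor, 2 aliquots each) were made with a SureCell 3′ kit on a ddSEQ system, per the labels' protocols. The authors deposited UMI counts per gene and barcode for each library, not normalized, and a table that gives annotated barcodes their cell type. Per the submitters' processing notes, the build was GRCm38 and the tools included featureCounts 1.6.0, STAR 2.7.1a, Seurat, SAMtools and UMI-tools. Not given in the sources used here: their settings, cell filters, doublet handling, strand and how types were named. A doublet caller was not run, so doublets may remain among the annotated cells.

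The deposited counts of annotated cells were summed per library and per cell type. Of 17580 gene IDs, 12505 matched the annotation exactly, 5015 without their version and 60 not at all. The main test was edgeR 4.0.16 (R 4.3.3) quasi-likelihood over the 4 groups with its default expression filter, TMM scaling and Benjamini-Hochberg adjustment at 0.05. Every adjusted p in the text is edgeR's unless DESeq2 (1.42.0) is named. NK cells and macrophages were not tested. CPM is per UMIs of the summed cells, without TMM. Fold changes against 0 use a floor of 3 counts over the group, ratios against 1 to 3 counts have exact intervals, and shares have exact 95% Clopper-Pearson intervals. Intervals and floors cover counting error only. The fit was tested on simulated counts. The depth was 52725 to 164586 UMIs per library.

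Genes were named by the 20 largest rises and 10 largest falls among calls over all cells, the 5 largest each way in tumour and T cells, and members of the gene lists. Other genes were chosen after their values were seen. Members and lists were chosen with earlier results of these data known.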

Additional observations from a re-analysis of the deposited data

Results flagged for a closer look

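The small barcodes outside the annotation, of at most 100 UMIs each, carried early-response transcripts above their level in the same kind of barcode at 4C. The share of the 41 genes was 1.21% in 37C aliquot A and 1.13% in 37C aliquot B, from 92187 and 99787 UMIs, against 0.479% and 0.412% in the 4C aliquots, from 54748 and 78819 UMIs. Nr4a3, absent from annotated cells at 4C, stood in these barcodes at 36.5 and 25.4 CPM at 4C and at 336 and 311 CPM at 37C. No comparison of the report tests these barcodes.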

How the results depend on the processing

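DESeq2's Wald test called 21 genes higher over all cells (19 among the 33), 1 lower and 4 early-response genes; in tumour cells it called 2 higher, 0 lower and 2 early. With no filter on low counts the counts were 79 higher, 6 lower, 15 early and 16 inflammatory over all cells, 1 lower in tumour cells, 14 higher and 1 lower in T cells, and 4 and 10 in the interaction. Thinning to the smallest total gave 3 higher, 0 lower, 0 early and 1 inflammatory over all cells, and 5 higher, 3 lower and 2 early in tumour cells; fewer genes had the counts to be tested. All listed barcodes gave 205 higher, 144 lower, 21 early and 24 inflammatory. Without macrophages 6 were lower and 3 inflammatory, without T cells 15 higher, 1 lower, 4 early and 4 inflammatory, without NK cells 6 lower, and without tumour cells 1 lower and 2 early. With only the 4 libraries without inhibitor, tumour cells gave 0 higher, 0 lower and 0 early, and T cells 5 higher and 1 lower.

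Leaving out 1 library gave 22 to 48 higher, 1 to 8 lower, 4 to 10 early and 7 to 12 inflammatory over all cells. In tumour cells it gave 9 to 24 higher (12 without 37C aliquot B, 13 without 4C aliquot A, 9 without 4C aliquot B), 2 to 12 lower and 4 to 7 early. In T cells it gave 4 to 10 higher and 0 to 2 lower, and in the interaction 0 to 3 and 0 to 14. The tumour-cell share difference of 7.20 percentage points ranged from -1.22 (without 37C aliquot B) to 15.6, and that of macrophages, 7.68, was 18.1 over immune cells only. Without macrophages H2-Aa and H2-Eb1 reversed to -1.19 and -1.27, and Klf2 to -0.96 without tumour cells. Of 688 alternatives for named genes, 471 kept direction and side of the threshold, 175 lost the call, 39 gained it and 3 reversed. Except where a change in genes tested is named, the cause was not tested.

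With the aliquot letter as a replicate block, 48 genes were higher, 8 lower and 13 inflammatory over all cells, 9 higher in T cells, and 0 and 2 in the interaction. The letters did not pair the samples: same-lettered deviations correlated at 0.088 between 37C and 4C, and the 6 pairs of groups ranged from -0.03 to 0.23.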

Other observations

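Neutrophil markers stood apart in 1 library. Of 10 markers, 7 were seen in the annotated cells at 4C and 5 at 37C, and their summed level was 13.7 of every 10000 UMIs in 4C aliquot B, against 0.190 in 4C aliquot A and 0.947 and 1.76 in the 37C aliquots. S100a8 had 33 UMIs and S100a9 45 UMIs in 4C aliquot B, in macrophage-labelled cells and T cells, and neither had a UMI in 4C aliquot A. In the macrophage-labelled cells of 4C aliquot B the 10 markers made up 442 of every 10000 UMIs.

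Gimap GTPases, expressed in lymphocytes, had a median log2 fold change of -0.66 over 7 genes tested, with none called. Ribosomal protein genes had a median of -0.03 over 73 tested, with none called. Mast and basophil markers had a median of -0.61 over the 5 tested in all annotated cells, with none called, on UMIs that lay mostly in the macrophage-labelled cells of 37C aliquot A and 4C aliquot A; Cpa3 had 116, 9, 103 and 0 UMIs there in 37C aliquots A and B and 4C aliquots A and B.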
